A study of Mus musculus with 8 samples.

Results

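The 10 genes described here encode the tenascins and lecticans of the brain matrix and the proteins that work beside them. They are the tenascins *Tnc* and *Tnr*, the lecticans *Vcan*, *Acan*, *Ncan* and *Bcan*, the link protein *Hapln1* and the membrane-bound proteoglycans *Ptprz1*, *Cspg4* and *Cspg5*. They were found by gene symbol among the 33971 genes of the count table, and 9 of them (all except *Acan*) passed the filter on low counts that left 19367 genes. RNA with poly-A tails was sequenced in bulk from whole brains of wild-type (WT) mouse embryos at E14.5, whose mothers ate a choline-deficient diet (CDD, 4 brains) or a normal diet (ND, 4 brains) from the day of mating. The mouse strain, the sex of the embryos and the number of dams and litters are not stated. Brains of a group may therefore share a mother, and the p-values below measure only the spread between these brains. The 10 genes were proposed with results of this diet comparison already known, and were selected on their roles and on their CDD and ND counts, so their differences between diets are given as descriptions, with a standard error (SE) and no p-value. Whether a gene passed the threshold of the fit across all genes is stated to describe that fit and is not offered as support for a difference.

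As background, the matrix of the brain is built on hyaluronan, a long sugar chain made at the cell surface. Lecticans are secreted chondroitin sulfate proteoglycans that bind hyaluronan at one end, where link proteins hold them in place, and bind tenascins at the other, so that the 3 kinds of protein form a lattice around cells. In the embryonic brain this loose matrix surrounds radial glia and growing axons, and the denser perineuronal nets that contain much *Acan* and *Bcan* protein form around neurons after birth. PTPRZ1 is a receptor phosphatase with chondroitin sulfate chains, and its secreted splice form, phosphacan, binds tenascins. Counts per gene do not separate such splice forms.

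Library totals ran from 31770217 to 43121170 counts. Markers of neurons and radial glia, the cells that define brain at this age, were abundant, with summed levels of 8254 to 9195 and 3109 to 3587 CPM (the count scaled to a common library size by TMM) in the 8 brains. CDD replicate 2 stood apart by 141 CPM of *Hox* transcripts, which mark hindbrain and spinal cord, while the other 7 brains had 0.188 to 2.93 CPM. CDD replicate 4 was far from the ND brains when counts were compared over genes between 2 brains (chi-square per degree of freedom 21.4 to 30.8). The other CDD brains were at 4.01 to 18.5 from the ND brains. From the other CDD brains, CDD replicate 4 was at 10.4 to 22.5. Over all genes tested, 8.83% passed an adjusted p-value of 0.05 between the diets in edgeR's quasi-likelihood test (4.59% lower and 4.24% higher in CDD brains), and the diets did not overlap in CPM for 15.0% (7.39% with all CDD brains below all ND brains and 7.65% above).

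The 10 genes spanned more than 3 orders of magnitude in level per gene length. On the FPKM scale that the authors deposited, *Ncan*, which encodes neurocan, was the most abundant in ND brains, with 73.7 ± 1.66 FPKM (SD, n = 4). *Ptprz1* followed with 27.6 ± 0.520 FPKM, *Tnc* with 22.6 ± 0.912 FPKM and *Vcan* with 17.9 ± 0.326 FPKM. *Cspg5* was at 15.4 ± 0.476 FPKM and *Bcan* at 12.6 ± 0.962 FPKM. A lower tier held *Tnr* at 4.35 ± 0.131 FPKM and *Cspg4* at 1.42 ± 0.107 FPKM, and *Hapln1* and *Acan* were near the limit of detection at 0.110 ± 0.0545 FPKM and 0.0390 ± 0.0260 FPKM. In ND brains the ranges of neighbours in this order did not overlap, except those of *Hapln1* and *Acan*. In CDD brains 3 neighbouring pairs stood differently. *Vcan* was above *Tnc* in 3 of 4 CDD brains, with overlapping ranges, whereas *Tnc* was above *Vcan* in 4 of 4 ND brains. *Cspg5* and *Bcan* had overlapping ranges in CDD brains (10.96 to 12.9 FPKM and 9.66 to 11.5 FPKM), and *Cspg5* was the higher of the pair in each of the 4. *Hapln1* and *Acan* did not overlap in CDD brains.

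**Figure D1:**
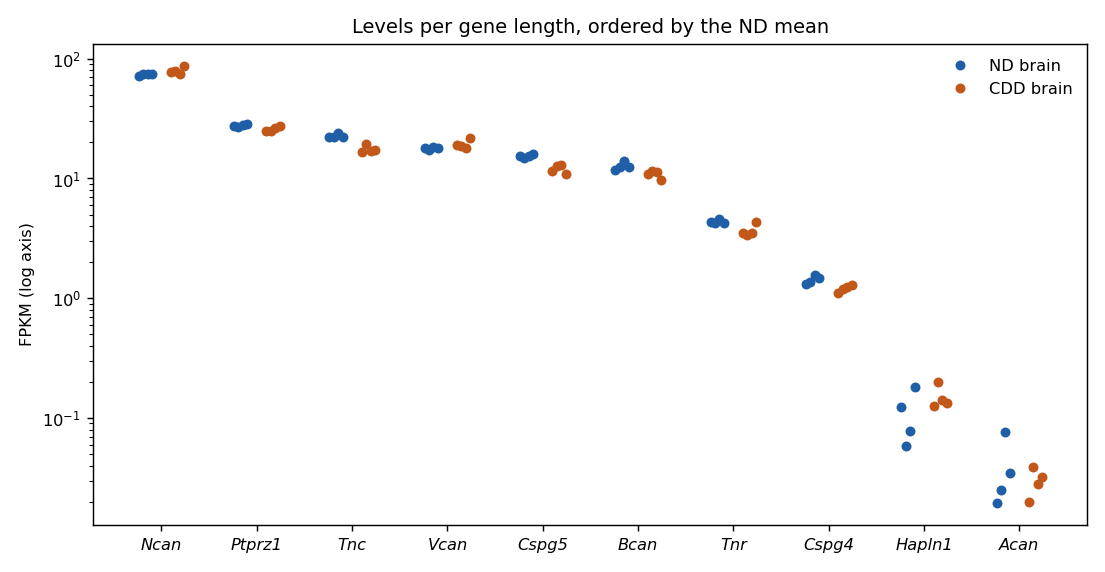
Level of the 10 genes in FPKM (log axis) in each of the 4 ND and 4 CDD brains, ordered from left to right by the ND mean, with 1 point per brain. *Ncan* is highest in every brain and *Hapln1* and *Acan* lie at or below 0.201 FPKM in every brain. *Tnc* is above *Vcan* in 4 of 4 ND brains, and *Vcan* is above *Tnc* in 3 of 4 CDD brains, where their ranges overlap.

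The sequences just before the transcription starts are shown for 3 of the genes with lower counts in CDD brains (*Tnc*, *Tnr*, *Bcan*) and for the lecticans that were not lower (*Vcan*, *Ncan*), so that the promoters of genes that moved differently can be read side by side. RefSeq windows of 250 bases before the start were at hand for 9 of the 10 genes (all except *Cspg5*), on GRCm38.p6, which is not the build of the gene positions given below. The windows are chr4:64047016-64047265 for *Tnc* (minus strand, the farther upstream of its 2 starts), chr1:159523519-159523768 for *Tnr* (plus strand), chr3:88000357-88000606 for *Bcan* (minus), chr13:89742513-89742762 for *Vcan* (minus) and chr8:70120845-70121094 for *Ncan* (minus). Each reads 5′ to 3′ along the gene, and capitals mark matches on either strand to the TATA box TATAAA, the GC box GGGCGG, the NFI site TTGGCA, the SOX site ACAAAG or the RBPJ site TGGGAA.

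*Tnc*: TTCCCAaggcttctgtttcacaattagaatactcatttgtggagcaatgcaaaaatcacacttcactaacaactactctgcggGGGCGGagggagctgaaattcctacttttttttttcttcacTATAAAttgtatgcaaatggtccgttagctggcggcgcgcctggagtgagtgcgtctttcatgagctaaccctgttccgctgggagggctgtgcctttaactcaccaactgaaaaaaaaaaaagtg
*Tnr*: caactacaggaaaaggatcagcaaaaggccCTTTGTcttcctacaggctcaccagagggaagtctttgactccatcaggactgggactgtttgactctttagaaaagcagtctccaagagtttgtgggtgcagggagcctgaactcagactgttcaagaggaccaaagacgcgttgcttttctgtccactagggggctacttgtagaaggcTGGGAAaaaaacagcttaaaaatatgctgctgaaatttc
*Bcan*: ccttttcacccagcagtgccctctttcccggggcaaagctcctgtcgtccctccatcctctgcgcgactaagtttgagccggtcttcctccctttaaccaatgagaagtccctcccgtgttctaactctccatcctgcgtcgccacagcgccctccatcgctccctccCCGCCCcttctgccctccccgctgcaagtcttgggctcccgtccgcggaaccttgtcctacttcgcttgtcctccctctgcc
*Vcan*: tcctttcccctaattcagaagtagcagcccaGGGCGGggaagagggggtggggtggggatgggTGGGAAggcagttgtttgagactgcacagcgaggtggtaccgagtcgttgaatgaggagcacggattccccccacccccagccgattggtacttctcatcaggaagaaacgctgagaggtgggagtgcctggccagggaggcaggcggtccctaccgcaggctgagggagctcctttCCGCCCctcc
*Ncan*: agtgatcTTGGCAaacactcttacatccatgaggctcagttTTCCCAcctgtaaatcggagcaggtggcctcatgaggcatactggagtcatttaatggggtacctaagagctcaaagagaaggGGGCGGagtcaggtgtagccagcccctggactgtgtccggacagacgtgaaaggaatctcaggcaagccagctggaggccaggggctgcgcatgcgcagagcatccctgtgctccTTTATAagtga

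The matches, counted from -1 at the base before the start, differed from gene to gene. *Tnc* had an RBPJ match at -250, a GC box at -167 and TATAAA at -126, *Tnr* a SOX match at -220 and an RBPJ match at -39, and *Bcan* a GC box at -82. *Vcan* had GC boxes at -219 and -10 and an RBPJ match at -187, and *Ncan* had an NFI match at -243, an RBPJ match at -209, a GC box at -126 and a TATAAA match at -11. No matches overlapped in these 5 windows. The window of the other *Tnc* start, not printed, held a GC box at -246, TATAAA at -205, an RBPJ match at -81 and an NFI match at -19. The counts of genes that follow used 1 window per gene, for *Tnc* the printed one. Among the 9 genes with a window, the GC box was found in 7 (32.9% of 27025 promoter windows), the RBPJ site in 4 (21.5%), TATAAA in 2 (13.0%), the NFI site in 2 (12.5%), the SOX site in 1 (16.5%) and the AP-1 site TGACTCA in 0 (4.43%). The RBPJ letters occurred both in genes with lower counts and in genes without. A match describes letters only and is not evidence of binding.

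Of the 9 genes tested, 4 passed the genome-wide threshold, all lower in CDD brains (*Tnc*, *Cspg5*, *Tnr* and *Bcan*), beside 8.83% of all genes, of which 4.59% were lower. Nothing is read from that count, since the genes were proposed from this comparison. Their median log2 fold change of CDD over ND was -0.22, beside -0.0038 for all genes tested. All CDD brains lay below all ND brains for 6 of the 10 genes, beside 7.39% of all genes tested, and they lay above for 0, beside 7.65%. With RLE scaling, or with FPKM in place of CPM, 4 of the 6 remained apart (*Tnc*, *Bcan*, *Cspg4* and *Cspg5*), and *Tnr* and *Ptprz1* overlapped.

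**Figure D2:**
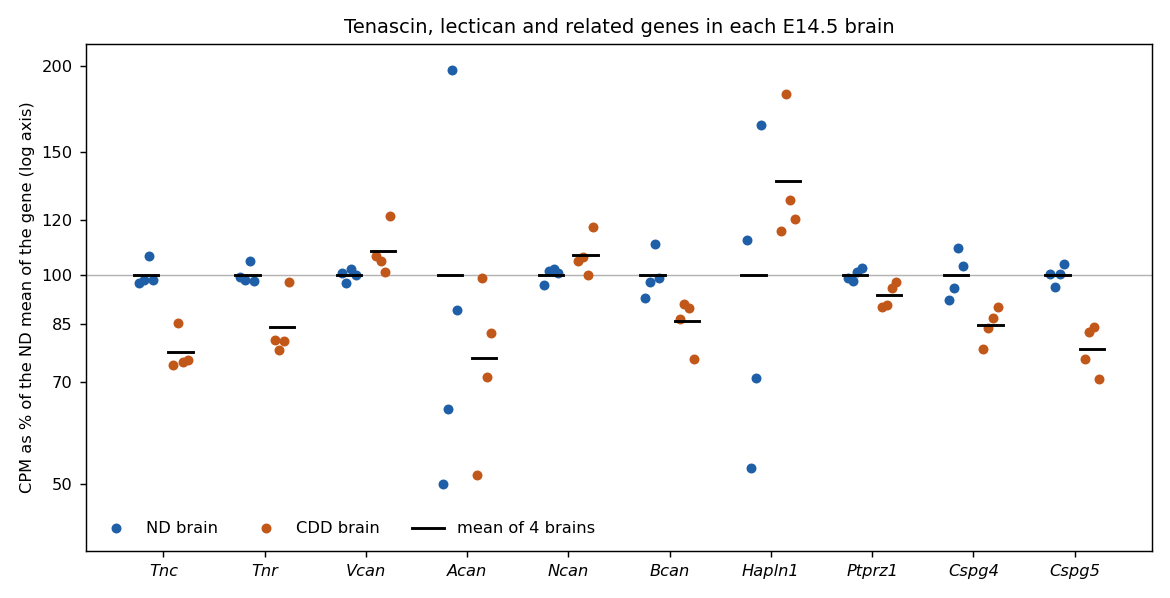
CPM of each of the 10 genes in each brain, as a percentage of the mean of that gene in the 4 ND brains (log axis), with 1 point per brain and a bar at the mean of 4 brains. The CDD brains lie wholly below the ND brains for *Tnc*, *Tnr*, *Bcan*, *Ptprz1*, *Cspg4* and *Cspg5*, and the scatter of *Acan* and *Hapln1* comes with at most 41 counts per brain.

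*Tnc* (ENSMUSG00000028364, chromosome 4, 63878022 to 63965252 in the deposited table) encodes tenascin-C, a large many-armed glycoprotein that radial glia deposit around themselves. Its promoter is the first of those printed above. It was counted at 131, 151, 133 and 133 CPM in CDD brains 1 to 4 and at 172, 174, 188 and 174 CPM in ND brains 1 to 4. The diets did not overlap, and the highest CDD brain was still below the lowest ND brain. The means were 137 ± 9.15 CPM and 177 ± 7.43 CPM (SD, n = 4 each), a log2 fold change of -0.37 (SE 0.049). *Tnc* had the lowest log2 fold change of the 9 genes.

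*Tnr* (ENSMUSG00000015829, chromosome 1, 159351339 to 159759299) encodes tenascin-R, which neurons and oligodendrocyte lineage cells make and which binds *Ncan* and *Bcan* proteins. It was at 45.4, 43.8, 45.3 and 55.0 CPM in CDD brains 1 to 4 and at 55.8, 55.3, 59.0 and 55.1 CPM in ND brains 1 to 4. Here 3 CDD brains were well below the ND brains and CDD replicate 4 stood just under the lowest of them. The log2 fold change was -0.25 (SE 0.063), and the gene passed the threshold in 3 of the 8 fits without a brain, failing without CDD replicate 1 or 2 or ND replicate 1, 3 or 4. The FPKM ratio of *Tnc* to *Tnr* was between 4.01 and 5.69 in CDD brains and between 5.10 and 5.28 in ND brains, within the range of the CDD brains. The other tenascins were scarce. *Tnxb* had 2.24 ± 0.438 and 2.79 ± 0.405 CPM in CDD and ND brains (log2 fold change -0.32, edgeR adjusted p = 0.255), and *Tnn* was under the filter.

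The lecticans did not move together. *Ncan* (ENSMUSG00000002341, chromosome 8, 70545735 to 70573523), neurocan, was at 558, 566, 534 and 624 CPM in CDD brains 1 to 4 and at 515, 539.8, 543 and 536 CPM in ND brains 1 to 4. The ranges overlapped, with CDD replicate 4 the highest of all 8, and the log2 fold change of 0.10 (SE 0.053) did not pass the threshold. *Vcan* (ENSMUSG00000021614, chromosome 13, 89803431 to 89890628), versican, was at 277, 272, 262 and 316 CPM in CDD brains 1 to 4 and at 262, 253, 265 and 260.2 CPM in ND brains 1 to 4. It overlapped too, again with CDD replicate 4 the highest, and its log2 fold change of 0.12 (SE 0.053) fell to 0.05 without that brain and did not pass the threshold in any of the 8 fits without a brain.

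*Bcan* (ENSMUSG00000004892, chromosome 3, 87894838 to 87907537) encodes brevican, the lectican typical of maturing glia. It was at 44.6, 46.9, 46.3 and 39.1 CPM in CDD brains 1 to 4 and at 47.7, 50.5, 57.3 and 51.2 CPM in ND brains 1 to 4. All CDD brains were below all ND brains, by a narrow gap, and CDD replicate 4, which was high for *Ncan* and *Vcan*, was the lowest. The log2 fold change was -0.22 (SE 0.064), and *Bcan* passed in 3 of the 8 fits without a brain, failing without CDD replicate 1 or 4 or ND replicate 2, 3 or 4. *Acan* (ENSMUSG00000030607, chromosome 7, 78703231 to 78764847), aggrecan, had 5, 10, 9 and 8 counts in CDD brains and 5, 6, 20 and 9 counts in ND brains and was not tested. It is also the main proteoglycan of cartilage. Of the 8 other cartilage genes tested 7 had a log2 fold change below 0, with a median of -0.26, and none of these 7 passed. *Col2a1* alone passed, as higher in CDD brains (log2 fold change 0.22, edgeR adjusted p = 0.0313), and it did so in 2 of the 8 fits without a brain. The defining markers *Matn1* and *Comp* had at most 12 counts in any brain.

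As shares of the summed FPKM of the 4 lecticans in each brain, *Ncan* made up 72.3 ± 0.791% in CDD brains and 70.7 ± 0.651% in ND brains. *Bcan* made up 9.97 ± 1.27% (8.14 to 10.98%) in CDD brains and 12.1 ± 0.647% (11.6 to 13.0%) in ND brains, ranges that did not overlap. *Vcan* held 17.7 ± 0.523% and 17.1 ± 0.484%, and *Acan* at most 0.0717% in any brain. The FPKM ratio of *Ncan* to *Tnc*, which does not depend on the scaling of the libraries, was 4.52 ± 0.425 (4.06 to 5.07) in CDD brains and 3.26 ± 0.105 (3.12 to 3.35) in ND brains. That of *Ncan* to *Cspg5* was 6.62 ± 0.966 (5.71 to 7.95) and 4.81 ± 0.203 (4.63 to 5.06). These ratios restate the differences of their genes within each library. The summed FPKM of the 10 genes was 169.9 ± 7.23 in CDD brains and 176 ± 3.81 in ND brains, with overlapping ranges.

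*Hapln1* (ENSMUSG00000021613, chromosome 13, 89687915 to 89759771), the link protein that joins lecticans to hyaluronan, was counted 25, 41, 36 and 26 times in CDD brains 1 to 4 and 25, 11, 16 and 37 times in ND brains 1 to 4. The diets overlapped, and the log2 fold change of 0.44 had an SE of 0.31 and a 95% interval from -0.16 to 1.04. Reads of the pseudogene *Gm8546* on the opposite strand inside *Hapln1* amounted to 23.5% of its counts over the 8 brains, and the strand setting of the counting is not given in the sources used here, so this level is uncertain. In the deposited positions each of the 4 lecticans lay beside a link protein gene, with 0 protein-coding genes between them, *Vcan* beside *Hapln1*, *Acan* beside *Hapln3*, *Ncan* beside *Hapln4* and *Bcan* beside *Hapln2*. The partners of a pair were expressed at unlike levels. In ND brains *Ncan* had 73.7 FPKM and *Hapln4* 0.441 FPKM, *Bcan* 12.6 FPKM and *Hapln2* 0.201 FPKM, and *Acan* 0.0390 FPKM and *Hapln3* 0.697 FPKM. None of *Hapln2*, *Hapln3* and *Hapln4* passed the threshold (log2 fold changes -0.61, -0.23 and -0.20, edgeR adjusted p = 0.311, 0.399 and 0.587).

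*Cspg5* (ENSMUSG00000032482, chromosome 9, 110072851 to 110091644) encodes neuroglycan C, a transmembrane proteoglycan of neurons and glial precursors. It was at 117, 129, 131 and 110.0 CPM in CDD brains 1 to 4 and at 156, 149, 156 and 161 CPM in ND brains 1 to 4. The diets were clearly apart, with CDD replicate 4 the lowest. The means were 122 ± 9.79 CPM and 156 ± 4.91 CPM, a log2 fold change of -0.35 (SE 0.050).

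*Cspg4* (ENSMUSG00000032911, chromosome 9, 56772317 to 56807154) encodes NG2, the surface proteoglycan of oligodendrocyte precursors and of pericytes. It was at 13.4, 14.3, 14.8 and 15.4 CPM in CDD brains 1 to 4 and at 15.7, 16.3, 18.7 and 17.6 CPM in ND brains 1 to 4. All CDD brains were below all ND brains, and the log2 fold change of -0.24 (SE 0.075) did not pass the threshold in edgeR but passed it in 6 of 17 alternatives, DESeq2 and the fit without CDD replicate 4 among them. *Ptprz1* (ENSMUSG00000068748, chromosome 6, 22875501 to 23052915) was at 356, 359, 379 and 387 CPM in CDD brains 1 to 4 and at 392, 388, 400.3 and 405 CPM in ND brains 1 to 4. The highest CDD brain was just below the lowest ND brain, and the log2 fold change of -0.10 (SE 0.047) did not pass.

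**Figure D3:**
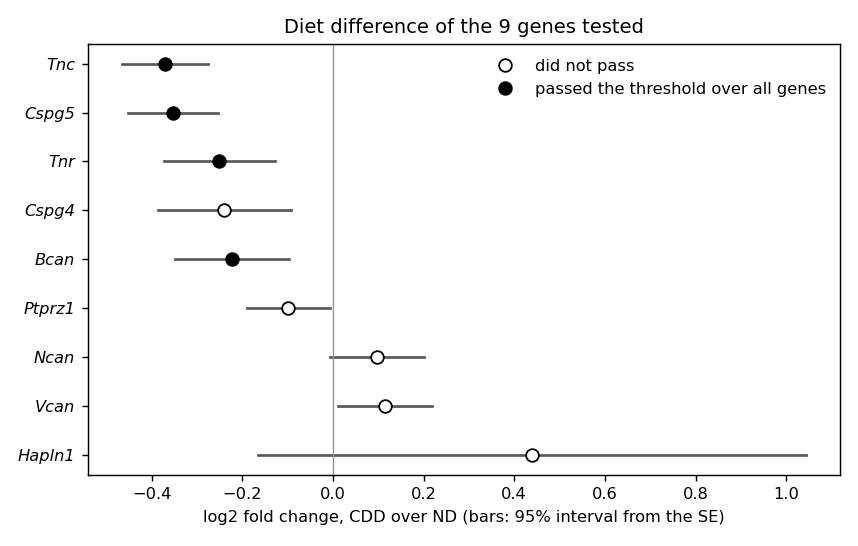
Log2 fold change of CDD over ND for the 9 genes tested, with bars for the 95% interval from the standard error and filled points for the 4 genes that passed the threshold over all genes. *Tnc* (-0.37) and *Cspg5* (-0.35) lie lowest, *Ncan* (0.10) and *Vcan* (0.12) lie above 0 without passing, and the interval of *Hapln1* is the widest.

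Some markers of the cells that make these proteins differed between the diets. The marker lists were chosen with earlier results of these data known. The study had picked *Olig1*, *Nes* and *Prom1* from these brains, so their direction is not independent evidence. Over all genes tested 4.59% were lower and 4.24% higher in CDD brains. Of 9 oligodendrocyte precursor markers 4 were lower and 0 higher in CDD brains, and the list had a median of -0.44 on the log2 scale. They were *Olig1* and *Gpr17* (log2 fold changes -0.50 and -0.66, edgeR adjusted p = 0.00287 and 0.00497) and *Lhfpl3* and *Pdgfra* (-0.44 and -0.31, edgeR adjusted p = 0.00440 and 0.00690). The summed level of the list was 111 to 128 CPM in CDD brains and 139 to 157 CPM in ND brains, which did not overlap. Of 17 radial glia markers 5 were higher and 1 lower, with a median of 0.21 and summed levels of 3235 to 3587 CPM and 3109 to 3217 CPM in CDD and ND brains. Lowest in p-value were *Nes* (0.47, edgeR adjusted p = 0.00344), *Prom1* (0.36, edgeR adjusted p = 0.00344), *Pax6* (0.25, edgeR adjusted p = 0.00642) and *Vim* (0.21, edgeR adjusted p = 0.0183). Between the diets, *Tnc*, a radial glia product, was lower in CDD brains, while the radial glia markers summed higher in CDD brains. This only sets the differences between the diets side by side, and a relation from brain to brain within a diet was not tested. In bulk tissue fewer cells of a type and less RNA per cell cannot be told apart, and the part of these markers in the values of the 10 genes was not tested.

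In the mural cell, meningeal fibroblast and microglia lists most log2 fold changes were below 0 (11 of 12, 9 of 11 and 9 of 10 genes). Their medians were -0.23, -0.23 and -0.19, and those of neurons and endothelium were -0.02 and -0.07. The counts below stand beside 4.59% lower and 4.24% higher over all genes tested. Of 12 mural cell markers 5 were lower and 1 higher (summed level 302 to 317 CPM in CDD and 311 to 331 CPM in ND brains, overlapping), and of 11 meningeal fibroblast markers 6 were lower and 1 higher (498 to 556 CPM and 536 to 678 CPM, overlapping). Of 14 neuron markers 3 were lower and 0 higher, with overlapping sums (8254 to 9195 CPM and 8647 to 9057 CPM). Of 10 microglia markers 1 was lower (64.6 to 70.2 CPM and 71.4 to 81.2 CPM, not overlapping), and of 11 endothelial markers 1 was lower, with overlapping sums (394 to 428 CPM and 416 to 436 CPM). Of the 8 cartilage genes 1 was higher and 0 lower, against a median of -0.26, with overlapping sums (186 to 222 CPM and 192 to 223 CPM). Of 3 primitive globins, made by the first wave of red blood cells, 2 were higher (114 to 222 CPM and 33.3 to 44.99 CPM, not overlapping), and of 4 adult globins 0 passed (611 to 1196 CPM and 775 to 2881 CPM, overlapping). Leaving out CDD replicate 2, the brain with the *Hox* transcripts, left the sign of the log2 fold change of each of the 9 genes tested as it was, and 3 of them then passed the threshold.

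The brains of a diet also differed among themselves in these genes. For the 8 genes with at least 1 CPM, the log2 CPM of each brain was set against the mean of its diet, and the deviations of each pair of genes were correlated over the 8 brains, as a description that shares libraries and depth between all points. Over the 28 pairs the median Pearson r was 0.31, with 17 pairs above 0, and this median was 0.04 without ND replicate 3 and 0.16 without ND replicate 1. *Tnr*, *Vcan* and *Ncan* deviated together (r = 0.93 for *Tnr* and *Vcan*, 0.89 for *Vcan* and *Ncan*, 0.83 for *Tnr* and *Ncan*), and *Cspg5* deviated the opposite way (r = -0.75, -0.78 and -0.76 with *Tnr*, *Vcan* and *Ncan*). *Bcan* and *Cspg5* had an r of 0.66, and *Ptprz1* and *Cspg4* of 0.77. CDD replicate 4 was the highest CDD brain for *Tnr*, *Vcan*, *Ncan*, *Ptprz1* and *Cspg4* and the lowest for *Bcan* and *Cspg5*. Without it the first 3 correlations were 0.70, 0.64 and 0.42, and those with *Cspg5* were -0.40, -0.48 and -0.45. That of *Bcan* and *Cspg5* was 0.36, while that of *Ptprz1* and *Cspg4* was 0.72. In these values and the next the diet mean still included the brains left out, so their effect is only partly removed. What remains of each correlation with the mean taken anew was not tested. Without the 2 brains farthest from the median of the first gene of a pair, r was 0.52 for *Tnr* and *Vcan*, 0.08 for *Vcan* and *Ncan* and 0.07 for *Tnr* and *Ncan*, and -0.51, -0.01 and 0.03 for *Tnr*, *Vcan* and *Ncan* with *Cspg5*. The relations of *Ncan* with *Tnr* and *Vcan*, and those of *Vcan* and *Ncan* with *Cspg5*, thus rested on those brains. *Tnc* and *Tnr* had an r of -0.18.

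**Figure D4:**
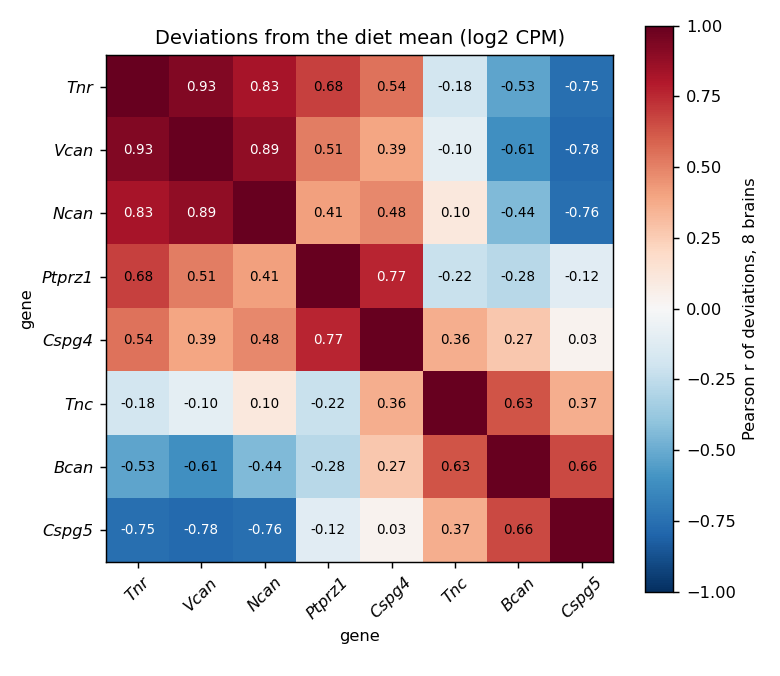
Pearson r between genes of their deviations from the diet mean in log2 CPM, over 8 brains, with the value printed in each cell and red for positive and blue for negative r. *Tnr*, *Vcan* and *Ncan* form a red block (0.83 to 0.93) and are blue against *Cspg5* (-0.75 to -0.78), and several of these fall to near 0 without 2 brains.

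Among genes that averaged 1 CPM or more, those whose deviations were most like those of *Tnc* were *Xxylt1* (r = 0.98), *Me1* (r = 0.98) and *Gnas* (r = 0.97), out of 15887 genes and over 8 brains. For *Hapln1*, the gene with the highest log2 fold change, they were *Bbs4* (r = 0.98), *Asah2* (r = 0.97) and *Gm38340* (r = 0.97), out of 15888. These are the highest values of a search over many genes in few brains, and none of the 6 genes passed the threshold between the diets. *Hapln1* itself had 11 to 41 counts per brain. It averaged under 1 CPM and was left out of the pairs above.

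Genes that act on this matrix were followed in 6 lists written from their known roles, with earlier results of these data known. The study had picked *Timp2* and *Hmmr* from these brains, so the direction of such genes is not independent evidence. Of the 129 listed genes 126 were tested. Of the 126, 7 were higher and 15 lower in CDD brains, beside the 8.83% of all genes that passed. The counts of the lists below likewise stand beside 4.59% lower and 4.24% higher over all genes tested. The median log2 fold change of the 126 genes was -0.07. The count depended on single brains, since 4 genes passed without ND replicate 3, 6 without ND replicate 4, 8 without ND replicate 1 and 11 without CDD replicate 1.

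Of 16 genes for making, binding and degrading hyaluronan, other link proteins included, 2 were higher and 0 lower, with a median of 0.04. *Hmmr*, a hyaluronan receptor that also acts at the mitotic spindle, rose from 19.4 ± 0.977 CPM in ND brains to 26.1 ± 3.16 CPM in CDD brains (log2 fold change 0.43, SE 0.078, edgeR adjusted p = 0.00301). *Cemip2*, which encodes a cell-surface protein implicated in hyaluronan degradation, rose from 123 ± 8.38 to 149 ± 8.42 CPM (0.27, SE 0.051, edgeR adjusted p = 0.00344). Both passed in each of the 8 fits without a brain. The hyaluronan synthases *Has2* and *Has3* and the receptor *Cd44* did not pass (log2 fold changes 0.08, 0.06 and -0.21).

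Of 28 genes tested for chondroitin sulfate synthesis, which builds the sugar chains of lecticans, 7.14% passed, beside 8.83% of all genes tested. In this list 2 were lower and 0 higher, with a median of -0.06. These were *Uxs1*, which makes the xylose donor for the first sugar of the chain (-0.23, edgeR adjusted p = 0.0338), and *Papss2*, which makes the sulfate donor (-0.67, edgeR adjusted p = 0.0470). Each passed in 2 of the 8 fits without a brain. Of 19 matrix proteases and inhibitors 2 were lower and 0 higher, with a median of -0.07. *Timp2*, an inhibitor of metalloproteinases, was at 139 ± 3.50 CPM in CDD and 161 ± 1.90 CPM in ND brains (-0.22, SE 0.039, edgeR adjusted p = 0.00287) and passed in each of the 8 fits. *Adamts15*, of the protease family that cleaves lecticans, was at 13.0 ± 0.558 and 16.3 ± 1.53 CPM (-0.33, SE 0.078, edgeR adjusted p = 0.0144) and did not pass without ND replicate 3 or 4. The lectican-cleaving *Adamts4* and *Adamts5* did not pass (log2 fold changes 0.12 and 0.23).

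Of 36 ligands and receptors of the 10 proteins tested, 7 were lower and 3 higher, with a median of -0.08. Among the lower ones were the Nogo receptor family genes *Rtn4rl2* (-0.31, SE 0.070, edgeR adjusted p = 0.0108) and *Rtn4r* (-0.27, SE 0.067, edgeR adjusted p = 0.0161). This family includes receptors through which axons respond to inhibitory matrix and myelin. *Rtn4rl2* passed in each of the 8 fits without a brain and *Rtn4r* in 4. *Cntn6*, an axonal contactin, was lower as well (-0.39, edgeR adjusted p = 0.0169) and passed in 6 of the 8 fits, failing without ND replicate 3 or 4. The 3 higher ones were *Ptprf* (0.19, edgeR adjusted p = 0.0255), *Erbb2* (0.27, edgeR adjusted p = 0.0263) and *Itgb8* (0.28, edgeR adjusted p = 0.0286). *Ptprf* passed in 5 of the 8 fits without a brain, and *Erbb2* and *Itgb8* in 3 each. *Ptn*, which encodes the PTPRZ1 ligand pleiotrophin, was at 333 ± 18.1 CPM in CDD and 365 ± 5.01 CPM in ND brains (-0.13, edgeR adjusted p = 0.0930), and its relative *Mdk* was at 67.2 ± 5.19 and 66.2 ± 4.18 CPM (0.02, edgeR adjusted p = 0.864).

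Of 26 other proteoglycans and matrix partners, 4 were lower and 2 higher, with a median of -0.10, and their summed level was 2677 to 2797 CPM in CDD and 2810 to 2944 CPM in ND brains. The lower genes were *Fmod*, a small collagen-binding proteoglycan (-0.53, edgeR adjusted p = 0.0114), *Col9a2*, a collagen that can carry a chondroitin sulfate chain (-0.34, edgeR adjusted p = 0.0301), *Nid1*, which links laminin and collagen in basement membranes (-0.16, edgeR adjusted p = 0.0378), and the glypican *Gpc5* (-0.55, edgeR adjusted p = 0.0407). *Fmod* passed in 7 of the 8 fits without a brain, *Col9a2* in 4, and *Nid1* and *Gpc5* in 3 each. Collagens and *Fmod* are also made by meningeal cells, whose markers are given above, and the part of those cells was not tested.

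**Figure D5:**
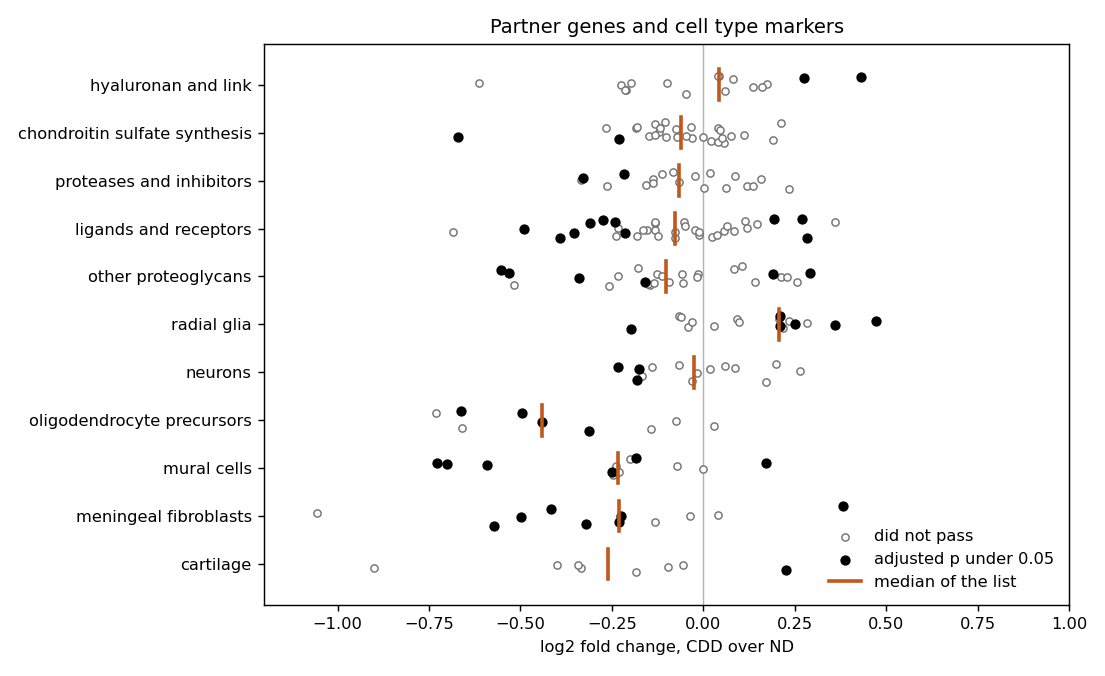
Log2 fold change of CDD over ND for every tested gene of 5 partner lists (the other tenascins are not drawn) and of 6 cell type marker lists, with 1 point per gene, filled where the edgeR adjusted p-value was under 0.05, and a bar at the median of each list. The medians of these partner lists lie between -0.10 and 0.04, while those of radial glia (0.21) and oligodendrocyte precursors (-0.44) lie on opposite sides of 0. Those of mural cells, meningeal fibroblasts and cartilage (-0.23, -0.23 and -0.26) also lie below 0.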

How the data were processed

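RNA from 8 whole E14.5 brains was compared by maternal diet, with samples grouped as their labels give it. For each brain and gene the authors deposited raw read counts, a normalized signal (counts divided by a size factor per library) and FPKM values, which were used for levels between genes. Per the submitters' processing notes HISAT2 2.0.5, featureCounts 1.5.0-p3 and DESeq2 1.20.0 were used; the genome build, the annotation and the strand setting are not given in the sources used here. Columns with the authors' own comparison (log2 fold change, p-value and adjusted p-value) were not used. All per-sample columns were assigned to a sample.

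Counts were filtered with filterByExpr (19367 of 33971 genes passed), TMM was used for scaling, and the diets were compared with the robust quasi-likelihood test of edgeR 4.0.16, with diet as the single term and Benjamini-Hochberg adjustment over all genes tested (threshold 0.05). CPM use TMM library sizes. Same-diet brains differed in counts by more than sampling noise (chi-square per degree of freedom 3.76 to 22.5), so none was counted as a duplicate. Library totals ran from 31770217 to 43121170 counts, and the common biological coefficient of variation was 0.0814.

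The 10 genes, the gene lists and the marker lists were chosen with earlier results of these data known, and some listed genes (*Timp2*, *Hmmr*, *Olig1*, *Nes* and *Prom1* among them) had been picked by the study from these brains, so their direction is not independent evidence. Named were all 10 genes, up to 4 genes per list that passed with the smallest p-values, link protein genes beside a lectican, and the 3 genes most alike for 2 of the 10. A gene that this rule would name is not reported here. Other genes (*Tnxb*, *Tnn*, *Has2*, *Has3*, *Cd44*, *Adamts4*, *Adamts5*, *Ptn*, *Mdk*, *Ptprf*, *Erbb2*, *Itgb8*, *Col2a1*, *Matn1*, *Comp*, *Gm8546*) were named after their values were seen. Alternatives were DESeq2 1.42.0, limma-voom (limma 3.58.1), RLE and upper-quartile scaling, no filter, a minimum of 10 counts in every brain and a prior count of 0.5. Further ones were an adjusted p-value under 0.01, the replicate number as a block, and leaving out each brain in turn. FPKM with a pseudocount of 1 were compared on the log2 scale with limma, not with edgeR. R 4.3.3, Python 3.11.15, pandas 2.3.3, NumPy 2.4.6 and matplotlib 3.10.9 were used.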

Additional observations from a re-analysis of the deposited data

Results flagged for a closer look

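Each measured value of the 10 genes and each summed gene list was searched, within a diet, for a brain far from the other 3 by Dixon's 95% criterion. Of 54 groups checked 5 were so marked, where chance marks about 1 in 20, or 2.7 of 54. *Tnc* was marked in both diets, at 150.5 CPM in CDD replicate 2 (131 to 133 CPM in the other CDD brains) and at 188 CPM in ND replicate 3 (172 to 174 CPM in the other ND brains), and the diets were apart with and without these brains. *Tnr* was at 55.0 CPM in CDD replicate 4 (43.8 to 45.4 CPM in the others). The summed chondroitin sulfate synthesis genes were at 854 CPM in CDD replicate 1 (886 to 887 CPM in the others). The summed *Hox* genes were at 141 CPM in CDD replicate 2 (0.279 to 2.93 CPM in the others).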

How the results depend on the processing

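Of 153 log2 fold changes of the 9 genes under other settings 0 changed sign, 134 stayed on the same side of the threshold, 13 no longer passed (*Tnr* and *Bcan*) and 6 newly passed (*Cspg4*). Of the 10 genes 4 passed, 2 (*Tnc*, *Cspg5*) with FPKM and a pseudocount of 1 or at an adjusted p-value under 0.01, and 2 (without CDD replicate 1, ND replicate 3 or ND replicate 4) to 4 when a brain was left out. Over all genes 1710 passed, 519 with FPKM, 477 at the stricter threshold, and 471 (without ND replicate 3) to 2495 (without CDD replicate 3) when a brain was left out, with 688 without ND replicate 1 and 615 without ND replicate 4. Of the matrix list genes 22 passed, 6 with FPKM, 3 at the stricter threshold, and 4 (without ND replicate 3) to 23 when a brain was left out. The FPKM setting changed the test as well as the scale, since limma took the place of edgeR. The cause of its lower counts was not tested. Deviations of same-numbered brains correlated at 0.10, -0.13, 0.12 and 0.23. Among the 4 brains of the other diet, 6 of 8 brains correlated best with the one of their own number. Whether the replicate numbers mark pairs is not stated, and these values do not settle it. The main fit did not take them as pairs. With the replicate number as a block 1812 genes passed (1570 of them shared), 5 of the 10 genes and 20 matrix list genes. DESeq2 called 2195 genes (1679 shared), 5 of the 10 and 29 of the matrix lists. The median pair correlation was 0.04 to 0.35 when a brain was left out. Depth limits *Acan* and *Hapln1*, which had at most 41 counts in a brain.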
